A study of Zea mays with 12 samples.

Results

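In roots of untreated maize seedlings, 200 mRNAs were chosen for the highest numbers of ribosome footprints relative to their RNA. These 200 genes were followed through 6 and 12 hr of treatment with tunicamycin (TM). They were chosen from the libraries of 0 hr. For each gene, the count plus 0.5 was scaled to 1000000 counts per library, which gives the counts per this number, or CPM. The ratio was the CPM of ribosome-protected fragments (RPFs) divided by the CPM of RNA of the same replicate. A gene qualified with at least 20 CPM in both ribo-seq libraries and at least 5 counts in both RNAseq libraries of 0 hr, and an identifier that starts with Zm00001d. Of the 39498 genes in the file 39324 had such an identifier, and 8046 qualified. The score was the lower of the 2 ratios, and the 200 highest scores made the ribosome-rich genes. The ratios of 0 hr chose these genes, so values of 0 hr are given as a description and the main tests do not use them. An alternative fit with all libraries includes those of 0 hr, but it too compares only 6 and 12 hr values.

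The study sampled roots of B73 seedlings, an inbred line of maize, after 0, 6 and 12 hr in 5 µg/ml TM dissolved in DMSO, with 2 biological replicates per time point. Each of the 6 lysates gave 1 ribo-seq and 1 RNAseq library, 12 libraries in all. All groups share the cultivar and the tissue and differ in the time of exposure. The methods also describe mock-treated roots. They were not analysed here, and TM and time in culture therefore cannot be told apart. The labels give younger seedlings than the methods do.

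Ribosome profiling digests the mRNA that ribosomes do not cover and counts what is left, so that RPFs show where and how often ribosomes sit on coding sequences. The number of RPFs per mRNA, often called translation efficiency, depends on how often ribosomes start on a message and on how fast they move along it. TM blocks the N-glycosylation of proteins in the endoplasmic reticulum (ER). The misfolded proteins that result set off the unfolded protein response (UPR), which changes transcription in plants as in animals. For maize, the paper reports little change in global translation but a lower translation efficiency of many mRNAs. Roots are a mixture of cell types, and in such bulk samples fewer cells of a type and less RNA per cell cannot be told apart.

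No table used here pairs the identifiers of these genes with names, so no function is given for any of them, and the identities of the cells were not checked against markers. Genes are mostly called by their rank of the score at 0 hr. Ribo-seq libraries held 1667094 to 12328304 counts and RNAseq libraries 2019128 to 9861654, and the depth of the duplicates differed at every time point. Duplicates differed by more than counting alone would give, since over the 6 pairs the chi-square was 4.72 to 12.0 times its degrees of freedom. Reads that fit several genes equally well were kept once by the authors, so near-identical genes may share counts.

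The highest score was 6.14. At the edge of the choice, the genes ranked 199 and 200 had scores of 2.337 and 2.334, and those ranked 201 and 202, just outside, had 2.333 and 2.332. There was thus no gap in the scores where the choice ends. The 200 genes had a median ratio of 3.09 in replicate 1 and 2.83 in replicate 2 at 0 hr, against 1.22 and 1.15 in the 7846 other genes past the same limits. These values follow from the choice. In RNA the ribosome-rich genes were moderately abundant at 0 hr, with a median of 31.9 and 34.7 CPM, against 52.3 and 55.0 CPM in the other genes. In RPFs their medians were 96.7 and 101.5 CPM, against 57.3 and 57.4 CPM.

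The libraries of 6 and 12 hr had no part in the choice. At 6 hr the ribosome-rich genes had a median ratio of 2.62 in replicate 1 and 2.64 in replicate 2, against 1.11 and 1.16 in the other genes. At 12 hr their median ratio was 2.51 and 2.37, against 1.14 and 1.20. The mean of the lysate medians was 2.63 ± 0.016 at 6 hr and 2.44 ± 0.10 at 12 hr (SD, n = 2 lysates each). Their median ratio was thus above that of the other genes in each of the 4 later lysates, and below its own value of 0 hr in each of them. Single genes spread widely. The ratios ran from 0.625 to 40.6 in replicate 1 and from 1.28 to 6.11 in replicate 2 at 6 hr, and from 0.961 to 32.0 and from 0.969 to 6.35 at 12 hr.

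**Figure D1:**
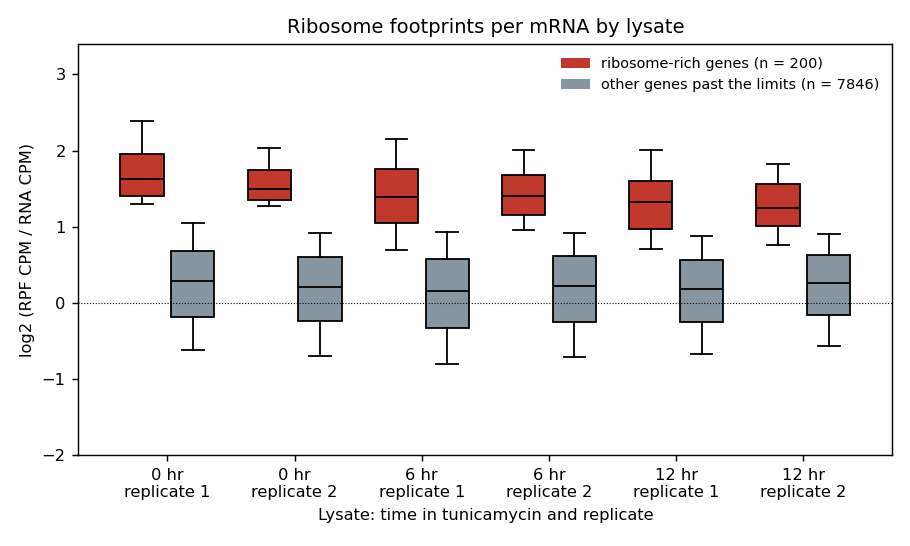
Ratio of RPF CPM to RNA CPM on a log2 axis in each lysate, for the 200 ribosome-rich genes (red) and the 7846 other genes past the same limits (grey). Boxes run from the 25th to the 75th percentile with the median as a line and whiskers reach the 10th and 90th percentiles. The medians of the ribosome-rich genes lie above those of the other genes in all 6 lysates, of which the 2 of 0 hr chose the genes.

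In relative terms most of the genes had more RPFs than RNA at both later times. Both ratios were above 1 in 198 of the 200 ribosome-rich genes (99.0%) at 6 hr and in 198 at 12 hr, against 49.7% and 55.7% of the other genes. Both ratios were at least 2 in 144 (72.0%) at 6 hr and in 124 (62.0%) at 12 hr, against 2.65% and 2.31% of the other genes. None of the 200 genes had both ratios below 1 at either time.

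Whether a ratio differed from 1 was tested for each gene in 1 edgeR quasi-likelihood model of the 8 libraries of 6 and 12 hr, with the lysate as a term, over 19782 genes. At 6 hr, 193 of the 200 ribosome-rich genes had more RPFs than RNA at an adjusted p under 0.05 (edgeR) and 0 had fewer. The background was 13.0% of all genes tested with more RPFs and 18.6% with fewer, and 27.9% with more and 13.1% with fewer among the genes past the limits. At 12 hr, 192 had more (edgeR) and 0 had fewer, where the background was 13.8% of all genes with more and 17.0% with fewer, and 29.9% with more and 11.0% with fewer among the genes past the limits. The same 189 genes were called at both times. The median fitted log2 ratio of the ribosome-rich genes was 1.44 at 6 hr and 1.29 at 12 hr, against -0.14 and -0.08 for all genes tested. A log2 ratio of at least 1 was fitted for 176 of the ribosome-rich genes at 6 hr and 159 at 12 hr. Of the 19782 genes tested, 1146 and 988 reached this value, and of the 8046 genes past the limits 632 and 550. Among the 200 genes with scores just below those of the ribosome-rich genes, 120 and 96 reached it.

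**Figure D2:**
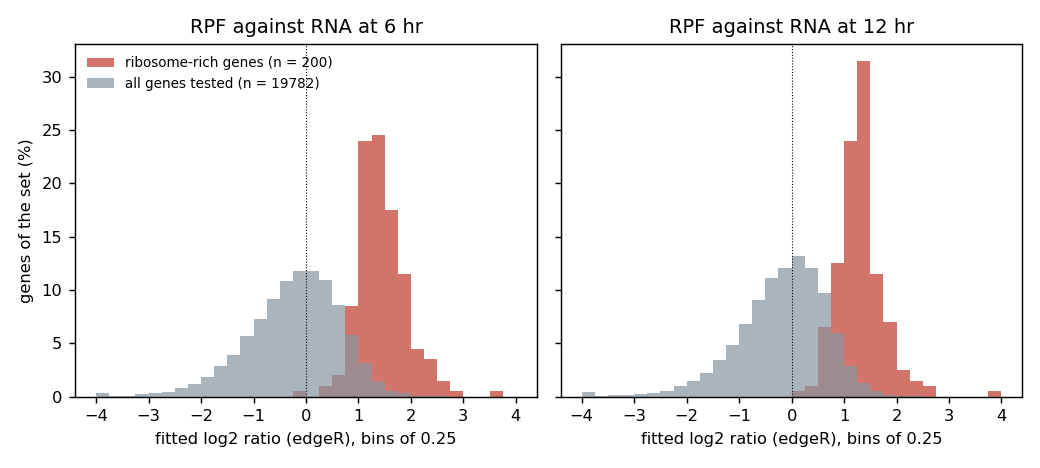
Distribution of the fitted log2 ratio of RPFs to RNA at 6 hr (left) and 12 hr (right), in percent of each set, for the 200 ribosome-rich genes (red) and the 19782 genes tested (grey). Values beyond the axis are in the end bins. The ribosome-rich genes center at 1.44 and 1.29, and all genes tested at -0.14 and -0.08.

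A ratio of 1 depends on how the libraries are scaled, since it sets 2 kinds of library against each other. With TMM scaling 196 and 195 of the 200 genes had more RPFs than RNA at 6 and 12 hr, and with scaling to actin, as the methods describe, 169 and 127. Over all genes at 6 hr, 2564 had more and 3677 fewer RPFs with total counts, 3499 and 2619 with TMM, 832 and 7025 with actin, and 2677 and 2319 with DESeq2. At 12 hr the splits were 2723 and 3361, 3806 and 2350, 391 and 8395, and 2568 and 2228. These scalings moved the median log2 ratio of all genes by 0.19 (TMM), -0.43 (actin) and 0.12 (DESeq2) at 6 hr, and by 0.20, -0.60 and 0.08 at 12 hr. Relative to the median of all genes, the median of the ribosome-rich genes stood 1.57 to 1.58 higher at 6 hr and 1.37 to 1.38 higher at 12 hr, on the log2 scale, under these 4 scalings. Scaling moves all genes of a library together, so this distance could hardly change and its steadiness is no test.

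The 11 genes that were not called at one or both times had few RNA counts where they were chosen. In replicate 1 of 0 hr they had 5 to 45 RNA counts with a median of 15, against a median of 70 in the 189 others. Zm00001d047583, ranked 110, had the lowest geometric mean ratio at 6 and 12 hr among the 197 genes with at least 20 RNA counts in each later library. Its ratios were 2.62 and 2.87 at 0 hr, 0.625 and 1.28 at 6 hr, then 0.961 and 1.20 at 12 hr. Its RNA was 11.1 and 9.93 CPM at 0 hr, 22.6 and 23.0 CPM at 6 hr, then 17.2 and 22.3 CPM at 12 hr, and its RPFs were 29.2 and 28.6 CPM, 14.1 and 29.4 CPM, and 16.5 and 26.8 CPM. All 4 later ratios were thus below both ratios of 0 hr, and all 4 later RNA values above both of 0 hr. The values of 0 hr chose the gene, so these differences are a description. The fitted log2 ratio was -0.09 (SE 0.30, adjusted p = 0.856 by edgeR) at 6 hr and 0.12 (SE 0.28, adjusted p = 0.782 by edgeR) at 12 hr.

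The number of RNA counts at 0 hr went with how far the ratios moved toward those of other genes. These counts divide the RPFs in the ratio that chose the genes. Few counts and high ratios at 0 hr thus go together by the choice, and the grouping is only a description. In the 31 genes with under 20 RNA counts in at least 1 library of 0 hr, the median ratio was 4.36 and 3.10 at 0 hr, 2.39 and 2.48 at 6 hr, then 2.61 and 2.07 at 12 hr. In the 60 genes with 100 or more in both, it was 2.91 and 2.68 at 0 hr, 2.85 and 2.81 at 6 hr, then 2.58 and 2.52 at 12 hr. These 60 genes had median ratios above 2.5 in all 6 lysates, of which those of 0 hr chose the genes. The part of counting error in the choice was not tested.

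Applying the same limits and score to the later libraries gave a ranking of 8052 genes at 6 hr and 8107 at 12 hr. Of the 200 ribosome-rich genes, 191 and 185 were past the limits, and the 9 and 15 that were not fell short in RPFs. Among the 200 highest scores of 6 hr were 106 of them (53.0%), and among those of 12 hr 97 (48.5%). Among the highest 10% there were 168 and 152, and 0 were in the lower 50%. The median rank was 157 at 6 hr and 183 at 12 hr, and the lowest rank was 3781 and 3055. Of the next 200 genes, ranked 201 to 400 at 0 hr, 43 and 32 were among the 200 highest later on.

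A core of 76 genes was among the 200 highest at all 3 times, 30 at 0 and 6 hr, 21 at 0 and 12 hr, and 73 at 0 hr alone. The core had median ratios of 3.45 and 3.03 at 0 hr, 3.35 and 3.02 at 6 hr, then 2.99 and 2.87 at 12 hr. The 73 genes had 2.83 and 2.60 at 0 hr, 2.01 and 2.12 at 6 hr, then 1.89 and 2.07 at 12 hr. The later values sorted the genes and are a description. Sorted by the score of 0 hr alone, 35, 31, 23 and 17 genes of the successive groups of 50 were among the 200 highest at 6 hr, and 32, 27, 21 and 17 at 12 hr. The first 50 genes had median ratios of 2.97 and 3.08 at 6 hr, then 3.00 and 2.72 at 12 hr. The last 50 had 2.16 and 2.39 at 6 hr, then 2.31 and 2.28 at 12 hr.

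The order of the ratios within the 200 genes was loose also between duplicates. The correlation of the log2 ratio between duplicates over the 200 genes was 0.26 (0 hr), 0.33 (6 hr) and 0.52 (12 hr), against 0.78, 0.77 and 0.84 over the 8046 genes past the limits. Between times, the log2 ratio was averaged over duplicates. Over the 200 genes its correlation was 0.50 (0 and 6 hr), 0.43 (0 and 12 hr) and 0.79 (6 and 12 hr). Over the 8046 genes it was 0.89, 0.87 and 0.93. The correlations between duplicates use single lysates and those between times use averages, so they are not alike. Whether an order was lost over time was not tested. All are correlations across genes, which are not independent replicates, and the choice narrowed the range of the ratios at 0 hr. The ratios of the duplicates were more than 2-fold apart in 14 of the 200 genes at 0 hr, 19 at 6 hr and 7 at 12 hr, or 7.0%, 9.5% and 3.5%. In the other genes the shares were 4.28%, 4.75% and 1.52%.

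The 10 genes with the highest scores include genes with high ratios at all 3 times and genes whose later ratios were much lower. The gene ranked 1 had ratios of 6.25 and 6.14 at 0 hr, 8.06 and 3.76 at 6 hr, then 5.35 and 3.22 at 12 hr. Its RPFs were 140.7 and 121.5 CPM at 0 hr, 171.3 and 58.1 CPM at 6 hr, then 92.8 and 79.1 CPM at 12 hr, while its RNA stayed between 15.5 and 24.6 CPM in the 6 RNAseq libraries. The duplicates of 6 hr included the highest of its 6 ratios and the second lowest.

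Zm00001d038493, ranked 2, had the highest geometric mean ratio at 6 and 12 hr among those 197 genes. Its ratios were 5.82 and 12.1 at 0 hr, 40.6 and 2.23 at 6 hr, then 32.0 and 4.77 at 12 hr. In RPFs it had 278.3 CPM in replicate 1 and 42.4 CPM in replicate 2 at 0 hr, 236.6 and 27.2 CPM at 6 hr, then 177.5 and 36.1 CPM at 12 hr, so that replicate 1 was high at every time. In RNA replicate 1 was high only at 0 hr, with 47.8 and 3.50 CPM, against 5.83 and 12.2 CPM at 6 hr and 5.54 and 7.56 CPM at 12 hr. The fitted log2 ratio was 3.52 (SE 0.75, adjusted p = 0.00296 by edgeR) at 6 hr and 3.78 (SE 0.73, adjusted p = 0.00155 by edgeR) at 12 hr. The median SE of the 200 genes at 6 hr was 0.20. Without replicate 1 of 6 hr its log2 ratio at 6 hr was 1.17, and without replicate 2 of 6 hr 5.35. Without replicate 1 of 12 hr its log2 ratio at 12 hr was 2.27, and without replicate 2 of 12 hr 5.01.

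**Figure D3:**
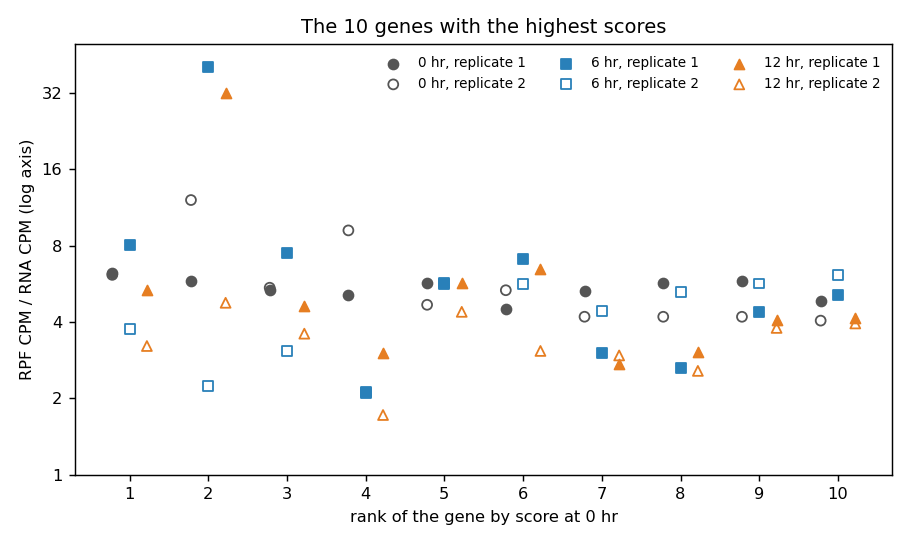
Ratio of RPF CPM to RNA CPM on a log axis for the 10 genes with the highest scores, by rank, with 0 hr as circles, 6 hr as squares and 12 hr as triangles, and replicate 1 filled and replicate 2 open. The gene ranked 2 has 40.6 and 32.0 in replicate 1 of 6 and 12 hr, and the gene ranked 4 has 2.12 and 2.10 at 6 hr.

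The gene ranked 4 was chosen on 8 and 16 RNA counts. Its ratios were 5.12 and 9.20 at 0 hr, 2.12 and 2.10 at 6 hr, then 3.03 and 1.72 at 12 hr. Its RPFs stayed between 21.6 and 31.6 CPM in the 6 ribo-seq libraries, while its RNA was 4.21 and 3.12 CPM at 0 hr, 13.7 and 13.0 CPM at 6 hr, then 10.4 and 13.4 CPM at 12 hr. The RNA of both later times lay above that of 0 hr without overlap and its RPFs did not. Low RNA at 0 hr raises the score that chose the gene, so this is a description. RNA lay above both values of 0 hr in 24.0% of the ribosome-rich genes at 6 hr and 20.5% at 12 hr. In the other genes past the limits the shares were 21.0% and 19.2%. The genes ranked 1, 3, 5, 6, 9 and 10 had ratios of at least 3.08 in all 6 lysates. The gene ranked 10 had 4.83 and 4.06 at 0 hr, 5.14 and 6.11 at 6 hr, then 4.15 and 3.95 at 12 hr.

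Zm00001d004721, ranked 5, was the 1 ribosome-rich gene whose RNA passed the test between 12 and 6 hr. Its ratios were 5.68 and 4.68 at 0 hr, 5.64 and 5.70 at 6 hr, then 5.70 and 4.39 at 12 hr. Its RNA was 67.1 and 62.5 CPM at 0 hr, 89.7 and 106.0 CPM at 6 hr, then 38.5 and 46.7 CPM at 12 hr. Its RPFs were 381.3 and 292.8 CPM at 0 hr, 506.0 and 603.8 CPM at 6 hr, then 219.4 and 205.2 CPM at 12 hr. Both kinds of library were thus highest at 6 hr and lowest at 12 hr, without overlap. Between 12 and 6 hr its RNA fell by 1.20 on the log2 scale (SE 0.18, adjusted p = 0.0461 by edgeR). The RPFs had a log2 difference of -1.39 (SE 0.20, adjusted p = 0.0904 by edgeR) and the ratio of -0.18 (SE 0.22, adjusted p = 1.00 by edgeR). The call in RNA was lost without replicate 1 of 6 hr (-1.32), without replicate 2 of 6 hr (-1.08), with actin scaling (-0.73) and with all libraries in the fit (-1.20).

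Zm00001d024027, ranked 100, had the second highest geometric mean ratio at 6 and 12 hr. Its ratios were 6.04 and 2.69 at 0 hr, 7.53 and 4.02 at 6 hr, then 5.47 and 6.35 at 12 hr. Its RPFs were 1709 and 382.3 CPM at 0 hr, 582.8 and 781.6 CPM at 6 hr, then 845.2 and 937.9 CPM at 12 hr, and its RNA was 283.0 and 142.2 CPM, 77.4 and 194.3 CPM, and 154.5 and 147.6 CPM. The duplicates of 0 hr stand apart in both kinds of library. Its fitted log2 ratio was 2.45 (SE 0.19, adjusted p = 8.16e-07 by edgeR) at 6 hr and 2.56 (SE 0.19, adjusted p = 3.37e-07 by edgeR) at 12 hr.

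The genes with the most RPFs at 0 hr have ratios that rest on many counts. The gene ranked 192 had 1863 and 1488 CPM of RPFs at 0 hr, 1099 and 1299 CPM at 6 hr, then 1229 and 1864 CPM at 12 hr. Its ratios were 2.43 and 2.35 at 0 hr, 2.13 and 2.31 at 6 hr, then 2.12 and 2.51 at 12 hr. The gene ranked 90 had ratios of 2.96 and 2.73 at 0 hr, 2.89 and 2.86 at 6 hr, then 2.72 and 2.31 at 12 hr. In the gene ranked 76 they were 2.84 and 3.07, 2.44 and 3.03, and 2.50 and 3.28. The ratios of these 3 genes overlapped between 0 hr and both later times, except that both ratios of the gene ranked 192 at 6 hr and of the gene ranked 90 at 12 hr lay below those of 0 hr.

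The gene ranked 69 had much less RNA and fewer RPFs at the later times. Its RNA was 293.9 and 358.4 CPM at 0 hr, 93.8 and 89.7 CPM at 6 hr, then 96.5 and 99.3 CPM at 12 hr. Its RPFs were 1049 and 1043 CPM, 478.4 and 320.7 CPM, and 309.0 and 251.1 CPM. Neither overlapped with 0 hr, whose values chose the gene. Its ratios were 3.57 and 2.91 at 0 hr, 5.10 and 3.58 at 6 hr, then 3.20 and 2.53 at 12 hr. In the gene ranked 121 the ratio was higher in replicate 1 at every time, with 4.67 and 2.57 at 0 hr, 5.15 and 3.12 at 6 hr, then 3.67 and 1.96 at 12 hr.

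Summed over the 200 genes, their RPFs made up 3.50% and 3.65% of the counts of the ribo-seq libraries at 0 hr, 3.20% and 3.28% at 6 hr, then 2.92% and 2.83% at 12 hr. The widest 95% Wilson interval of these was 3.17% to 3.22%, in replicate 1 of 6 hr, and covers counting error only. Their RNA made up 1.08% and 1.27% of the RNAseq counts at 0 hr, 1.12% and 1.16% at 6 hr, then 1.13% and 1.11% at 12 hr, with a widest interval of 1.07% to 1.09% in replicate 1 of 0 hr. The share of RPFs was thus lower at 12 hr than at 6 hr in both replicates, while the shares of RNA of the 3 times overlapped. It was also lower at 6 hr than at 0 hr, but the ratios of 0 hr chose the genes. Differences from 0 hr in these sums are therefore a description, and the intervals do not cover the choice. The ratio of the sums was 3.24 and 2.88 at 0 hr, where the genes were chosen, 2.85 and 2.82 at 6 hr, then 2.58 and 2.54 at 12 hr.

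**Figure D4:**
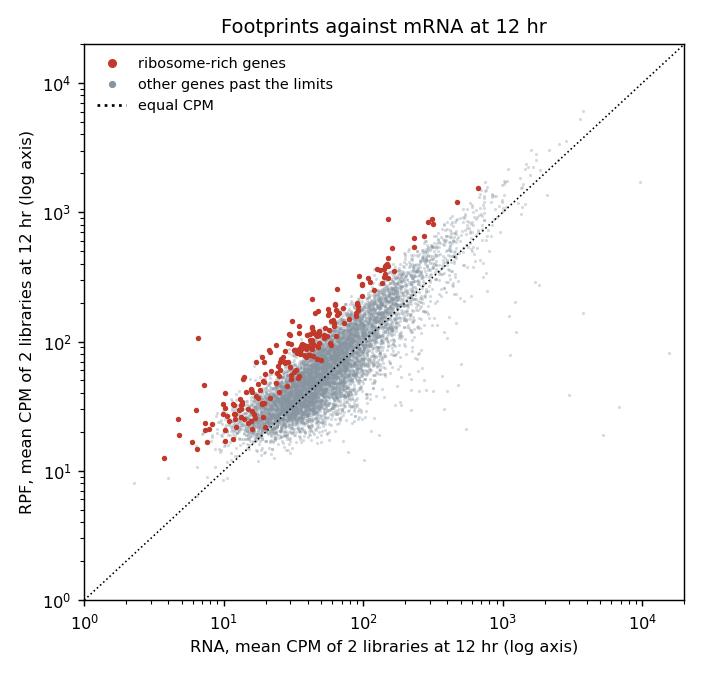
RPFs against RNA at 12 hr, each as the mean CPM of 2 libraries on log axes, for the 200 ribosome-rich genes (red) and the other genes past the limits (grey), with the dotted line at equal CPM. The ribosome-rich genes have median ratios of 2.51 and 2.37, and most lie toward the upper edge of the other genes over a wide range of RNA. The 2 sets overlap. The 10th percentile of the ribosome-rich genes is 1.64 and 1.70, and the 90th percentile of the other genes is 1.84 and 1.87.

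Relative to 0 hr, which chose the genes, the median log2 difference of the ratio was -0.20 at 6 hr and -0.34 at 12 hr, against -0.06 and -0.03 in the other genes. The next 200 genes by score had -0.17 and -0.27, close to the ribosome-rich genes. In RPFs the median log2 difference of the ribosome-rich genes was -0.09 and -0.29, and in RNA 0.10 and 0.05. Both later ratios lay below both of 0 hr in 69 genes at 6 hr (34.5%) and in 103 genes at 12 hr (51.5%), and above both in 17 (8.5%) and 9 (4.5%). The shares below were 36.5% and 49.0% in the next 200 genes and 19.0% and 18.9% in all other genes past the limits, and the shares above 5.5% and 3.0%, and 10.4% and 17.0%. How far the choice of genes by their ratios at 0 hr enters these differences was not tested.

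Between 12 and 6 hr neither group of libraries was used in the choice. In translation efficiency, 0 of the 200 genes and 0 of the 19782 genes tested passed the edgeR test (0.0% in both directions), and 0 passed with DESeq2. At an unadjusted p under 0.05, 0 of the ribosome-rich genes were higher and 4 (2.0%) lower at 12 hr (edgeR), where 1.45% of all genes were higher and 0.895% lower. The median SE of a log2 difference in translation efficiency was 0.28 over the 200 genes. The median log2 difference was -0.13 in the ribosome-rich genes and 0.04 in all genes tested, and the difference was below 0 in 146 of the 200 (73.0%) and in 45.1% of all genes. The next 200 genes had a median of -0.10 with 69.0% below 0. Both ratios of 12 hr lay below both of 6 hr in 47 of the 200 genes (23.5%) and above them in 14 (7.0%), where the background was 12.7% lower and 16.9% higher.

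In RPFs, 0 of the 200 genes passed the edgeR test between 12 and 6 hr, in either direction, against 1 higher of 20161 genes tested (0.00496%) and 0 lower (0.0%). At an unadjusted p under 0.05, 1 (0.5%) was higher and 17 (8.5%) lower (edgeR), where 1.90% of all genes were higher and 1.18% lower. DESeq2 called 0 higher and 3 (1.5%) lower, against 0.0496% and 0.0347% of all genes. Leaving out any 1 of the 4 libraries gave 4 lower (2.0%), against 0.0487% to 0.125% of all genes, and 1 higher (0.5%), against 0.140% to 0.261%, except without replicate 2 of 12 hr, where 0 were higher. The median log2 difference was -0.20 in the ribosome-rich genes, or 0.868-fold, and 0.01 in all genes. It was below 0 in 163 of the 200 (81.5%) and in 49.1% of all genes. The next 200 genes by score had a median of -0.13 with 71.0% below 0, so that lower RPFs at 12 hr are not shown to be particular to the ribosome-rich genes. Both RPF values of 12 hr lay below both of 6 hr in 63 genes (31.5%) and above them in 8 (4.0%), against a background of 14.8% lower and 15.6% higher. With scaling to actin the median of all genes moved by 0.28 and that of the ribosome-rich genes was 0.07, so that its sign turned. The median of the ribosome-rich genes stood 0.22 below that of all genes in place of 0.21, a distance that scaling can hardly change.

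**Figure D5:**
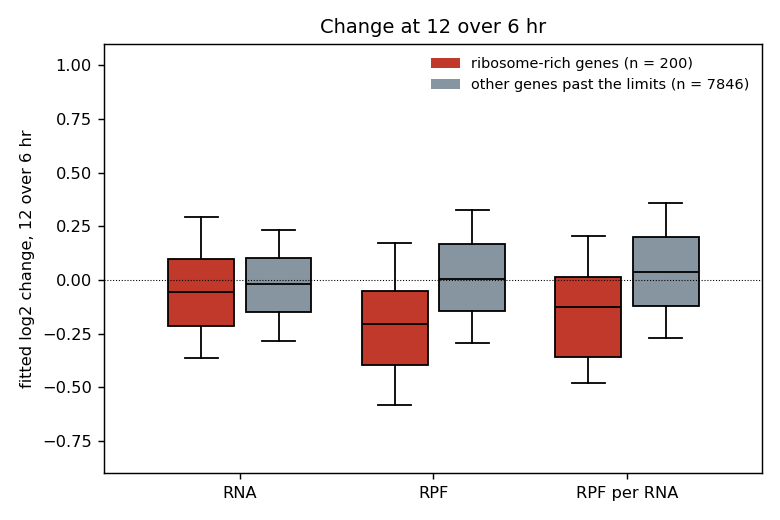
Fitted log2 change at 12 over 6 hr in RNA, RPFs and RPFs per RNA, for the 200 ribosome-rich genes (red) and the 7846 other genes past the limits (grey). Boxes run from the 25th to the 75th percentile with the median as a line and whiskers reach the 10th and 90th percentiles. The medians of the ribosome-rich genes are -0.06, -0.20 and -0.13.

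In RNA, 1 of the 200 genes was lower at 12 hr (0.5%), Zm00001d004721, and 0 were higher (edgeR), against 9 higher (0.0385%) and 5 lower (0.0214%) of 23364 genes tested. Among the genes past the limits, 0.0497% were higher and 0.0497% lower. At an unadjusted p under 0.05, 4 (2.0%) were higher and 10 (5.0%) lower, where 2.34% of all genes were higher and 2.41% lower. The median log2 difference was -0.06 in the ribosome-rich genes and -0.01 in all genes. Both RNA values of 12 hr lay below both of 6 hr in 55 genes (27.5%) and above them in 27 (13.5%), against a background of 19.3% lower and 14.6% higher. With scaling to actin the median of all genes moved by 0.46, and that of the ribosome-rich genes was 0.39, so that its sign turned too. Without replicate 1 of 12 hr, 3 genes (1.5%) were called higher and 8 (4.0%) lower, where 1.51% of all genes were higher and 1.59% lower. Without replicate 2 of 12 hr, 0 were called higher and 4 (2.0%) lower, against 0.405% and 0.322% of all genes, and without either replicate of 6 hr 0 were called.

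Some genes have a full identifier in the paper, and none of them was ribosome-rich by this rule. Derlin 1, a protein of the ER membrane that takes part in the removal of misfolded proteins, came nearest with rank 420. Its ratios were 2.01 and 5.17 at 0 hr, 1.82 and 2.52 at 6 hr, then 2.32 and 2.22 at 12 hr. BIP2, a chaperone of the ER lumen, was ranked 3431, with ratios of 1.76 and 1.15 at 0 hr, 1.36 and 1.25 at 6 hr, then 1.36 and 1.48 at 12 hr. The protein disulfide isomerase PDI-2 was ranked 1806, the co-chaperone ERDJ3a 3591, and actin 4500. These ranks are among the 8046 genes past the limits.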

How the data were processed

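RNAseq and ribo-seq were measured in maize roots at 3 time points with 2 replicates each. According to the methods and the submitters' processing notes (FastQC, cutadapt 1.16, Bowtie 1.2, SAMtools), the authors trimmed the reads, discarded those of noncoding RNA and aligned the others to coding sequences of the B73 RefGen_v4 genome. The deposited values are raw counts per gene, without normalization, and 0 columns of values were left unused. PCR duplicates are not said to have been removed, and intervals cover counting error only. Identifiers of another kind held 0.321 to 0.656% of the RPF counts and 3.70 to 5.77% of the RNA counts and stayed in the column totals, as the choice of genes uses them.

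Tests used edgeR 4.0.16 (glmQLFit and glmQLFTest, R 4.3.3) on counts scaled by library totals, over genes that passed filterByExpr, with Benjamini-Hochberg adjustment and a threshold of 0.05. The ratio of RPFs to RNA and its change were fitted over the 8 libraries of 6 and 12 hr with the lysate as a term, since the methods state that both libraries come from 1 lysate. Differences between duplicates in RNA and RPFs of the same lysates correlated across 8046 genes at 0.463 (0 hr), 0.0423 (6 hr) and 0.539 (12 hr). RNA and RPFs between 12 and 6 hr were each fitted over 4 libraries with time as the factor. The standard error of a log2 value is its size over the square root of the F statistic. The fits were tested on simulated data. Each simulation gave all genes the same spread and added no differences between lysates, which is simpler than these libraries. Total counts were used because actin, to which the methods scale, had only 59 to 445 counts in a library.

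The genes and the alternatives were chosen with earlier results of these data known. Genes were named by rule: the 10 highest scores, those beside the limit, those past a test of change, the highest and lowest later ratios among genes with at least 20 RNA counts in each later library, the most RPFs at 0 hr, and genes identified by the study. At most 2 identifiers per direction are printed, since 0 identifiers were paired with names by the reference table. For the same reason lists of genes and markers could not be applied. Alternatives were TMM, actin and DESeq2 1.42.0 scaling, no filter, and all libraries, with those of 0 hr included. Others were leaving out each replicate, fits without the lysate or with the replicate number, and other forms of the choice.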

Additional observations from a re-analysis of the deposited data

How the results depend on the processing

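Ratios against 1 at 6 and 12 hr depended most on scaling to actin, where 127 of 200 genes (63.5%) were called at 12 hr, against 192 (96.0%). The shares of all genes called higher were 1.98% with actin and 13.8% with total counts. On leaving out a replicate, the median log2 ratio of the 200 genes was 1.384 to 1.435 at 6 hr and 1.253 to 1.326 at 12 hr. That of all genes was -0.2056 to -0.1042 and -0.1434 to -0.05235. Between 12 and 6 hr the counts of called genes were small and moved with most settings. In RNA, higher calls (0) became 1 with actin, 1 without a filter and 0 to 3 on leaving out a replicate, and lower calls (1) became 3 with DESeq2, 5 without a filter, 0 with all libraries and 0 to 8 on leaving out a replicate. In these RNA fits, 0.612% of all genes were higher with actin and 0.318% without a filter, against 0.5% of the 200 genes in both. Lower were 0.0642% of all genes with DESeq2 and 0.179% without a filter, against 1.5% and 2.5% of the 200 genes. In RPFs, higher calls (0) became 1 without a filter (0.5%, against 0.185% of all genes). Lower calls (0) became 3 with DESeq2 (1.5%, against 0.0347% of all genes) and 4 without a filter (2.0%, against 0.0575%). On leaving out a replicate, the median log2 difference of the 200 genes in RPFs was -0.2895 to -0.1462. In translation efficiency, higher and lower calls stayed at 0 in all settings that kept every replicate, against at most 0.00875% of all genes. On leaving out a replicate, the median log2 difference of the 200 genes in translation efficiency was -0.176 to -0.0885. A fit without one replicate of a time assumes that the lone library varies like the other group.

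With the replicate number as a block, 1 gene was higher (0.5%) and 5 lower (2.5%) in RNA, against 0.377% and 0.312% of all genes, 1 higher (0.5%) and 13 lower (6.5%) in RPFs, against 0.551% and 0.283%, and 0 in translation efficiency. Differences between same-numbered replicates correlated between 12 and 6 hr at 0.127 in RNA and 0.482 in RPFs across genes, but with 2 numbers the samples share only a number. Without the lysate term, 188 and 178 genes (94.0% and 89.0%) had more RPFs than RNA at 6 and 12 hr, against 10.3% and 9.92% of all genes.

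The mean of the lysate medians at 6 hr (2.63) was 2.57 with at least 20 RNA counts at 0 hr, 2.57 with the geometric mean as score, 2.98 with TMM and 2.52 with column totals without the other identifiers, an alternative added after seeing the data. At 12 hr (2.44) it was 2.69 with TMM and 2.32 with those column totals. These choices shared 169, 149, 193 and 197 of the 200 genes. The log2 ratio of Zm00001d047583 turned sign at 6 hr with TMM (0.10), DESeq2 (0.00575), no lysate term (0.0143) and on leaving out a replicate (-0.706 to 0.356), and at 12 hr with actin (-0.48) and on leaving out a replicate (-0.0658 to 0.272). The call of Zm00001d004721 in RNA was lost with actin (-0.73), with all libraries (-1.20) and without replicate 1 (-1.32) or replicate 2 (-1.08) of 6 hr.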

Other observations

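Over the 12 libraries, the counts of the genes ranked 1 and 3 kept nearly the same proportion. They held 3803 and 3503 counts in all, and the second had 0.841 to 1.08 times the counts of the first in each library. The chi-square of their proportion was 0.463 per degree of freedom, against a median of 10.98 over 19900 pairs of ribosome-rich genes, of which 205 were under 2. The pair was singled out after its values were seen, and whether the genes share reads was not tested.

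In 2 of the 200 genes the ratio of replicate 1 was more than 2-fold that of replicate 2 at both 6 and 12 hr (1.0%), and in 1 gene the reverse held, against 15 and 9 of the 7846 other genes past the limits. The gene ranked 2 was among the first 2.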
